A study of Mus musculus with 8 samples.

Results

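The axon guidance ligands and receptors of the mouse eye surface were compared between the limbus and the cornea by RNA sequencing. Limbal rims and corneal buttons were cut from eyes of wild type C57BL/6J mice aged 8 weeks and pooled by tissue, 16 eyes in all, before RNA extraction. The limbal rim is the vascularized ring of tissue between cornea and sclera in which the limbal epithelial stem cells lie, and the corneal button is the transparent cornea inside it. No treatment, transgene or mutation was used in either tissue. Members were all genes of the deposited table whose symbols name a semaphorin (Sema), plexin (Plxn), ephrin (Efn), Eph receptor, Slit, Robo, netrin (Ntn) or Unc5 receptor, which gave 66 of the 23420 named genes. Of these, 35 are ligands and 31 are receptors.

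Axon guidance proteins are cues and receptors that steer growing nerve fibers by attraction or repulsion, and many of them also act on blood vessels, epithelia and immune cells. Semaphorins signal through plexins, the secreted class 3 semaphorins mostly together with the neuropilins as co-receptors. Slits act on Robo receptors and netrins on Dcc, neogenin and the Unc5 receptors. Ephrins and Eph receptors are both bound to the cell membrane and signal in both directions at contacts between cells. The cornea is densely supplied by sensory fibers of the trigeminal nerve, which reach it through the limbus, and it lacks the blood and lymphatic vessels that the limbus holds.

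The labels number 4 samples per tissue, but the deposited means are built from 1 library of each tissue. For every gene, the reads of each library were recovered from the deposited mean and, where the mean left a choice, the deposited fold change and its standard error. A single library stood for each tissue, so no difference could be checked against replicates. Named genes took 26104317 corneal and 21182025 limbal reads, and wherever reads or levels are given as a pair, the corneal one comes first. Log2 values are those of the ratio of limbus over cornea after division by the size factors. Each has a 95% exact Clopper-Pearson confidence interval (CI), which covers counting error only. The interval treats every read as a molecule of its own, so amplified copies of a molecule would make it too narrow. The sources used here mention no molecular identifiers that would tell such copies apart. Markers of the dissection went with their labels, as Krt12, the keratin of corneal epithelium, had 1137735 corneal and 233324 limbal reads, and Krt15, a keratin of the limbus, had 37738 and 353826. Of 14 lists of cell type markers, the summed level was higher in the limbus for 11 and in the cornea for 3. The log2 value of the summed ratio was -1.29 for corneal epithelium, -0.94 for keratocytes and -0.11 for smooth muscle and pericytes. In the last of these lists Notch3 (5755 and 3349 reads) made up most of the sum, and the other 4 markers with a mean of at least 10 were limbal. Keratocyte markers were split, with 2 at least 2-fold higher in the cornea and 1, Ptgds (186 and 1950 reads), in the limbus. The log2 value of the summed ratio lay between 0.71 and 1.34 for leukocytes, Schwann cells, fibroblasts and corneal endothelium, and between 2.43 and 3.46 for melanocytes, neurons, limbal and conjunctival epithelium, and photoreceptors and lens. For the vessels and muscle it was 3.74 (blood vessel endothelium), 4.28 (lymphatic endothelium) and 7.01 (skeletal muscle). In whole tissue, fewer cells of a type and less RNA per cell cannot be told apart.

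Among the guidance genes, calls towards the limbus outnumbered those towards the cornea. A mean of at least 10 normalized reads was found for 56 of the 66 members. Of these, 20 were at least 2-fold higher in the limbus beyond counting error (35.7%), against 17.7% of all 13932 named genes with such a mean. In the cornea, 4 members were at least 2-fold higher (7.14%), against 8.75% of all genes. A further 23 differed beyond counting error by less than 2-fold, 12 towards the limbus and 11 towards the cornea, and 9 did not differ beyond it. Counted without a fold limit, 32 were higher in the limbus (57.1%, against 36% of all genes) and 15 in the cornea (26.8%, against 40.5%). The median log2 value of the 56 members was 0.35, beside -0.04 over all genes with such a mean, a library with 3 reads or fewer being set to 3. The ratio pointed to the limbus for 37 members (66.1%, against 47.8% of all genes) and to the cornea for 19. Scaling to total reads raised every log2 value by 0.21, and 78.6% of the members, against 59.8% of all genes, then lay on the limbal side. On that scale 7 of the 9 members within counting error (Efnb2, Epha1, Epha4, Robo2, Sema3a, Sema4c and Unc5a) passed beyond it towards the limbus, by less than 2-fold. The shift was the same for all genes, and the share of all genes that passed in this way was not counted.

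Under 50 corneal reads stood behind 16 of the 20 limbal members (80%), against 69.8% of all 2467 limbal genes, and between 105 and 203 behind the other 4 (Sema3b, Slit2, Slit3 and Ephb2). Genes with few reads leaned to the limbus over the whole table. Among members with a mean from 10 to under 100, 14 of 17 were at least 2-fold higher in the limbus, against 48.3% of all such genes, and 1 in the cornea, against 10.2%. A gene with almost no reads in 1 tissue can reach a mean of 10 only through the other. With at most 3 corneal reads, 7 of the 56 members passed in this way through the limbus, as did 444 of all 13932 genes. These members were Sema4f (0 and 25 reads), Plxnb3 (1 and 25), Robo4 (1 and 326), Sema3g (1 and 102), Sema6a (2 and 71), Sema6b (3 and 90) and Epha7 (3 and 34). Sema4g (4 and 99 reads), Sema7a (6 and 132) and Plxnc1 (8 and 33) also had corneal levels under 10. For such genes the filter itself favors a call, among the members and all genes alike. Among the 39 members with a mean of at least 100, 6 were limbal (15.4%, against 9.03%) and 3 corneal (7.69%, against 8.34%). The median log2 value was 2.28 in the lower range, beside 0.96 over all genes there, and 0.06 in the upper range, beside -0.12.

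**Figure D1:**
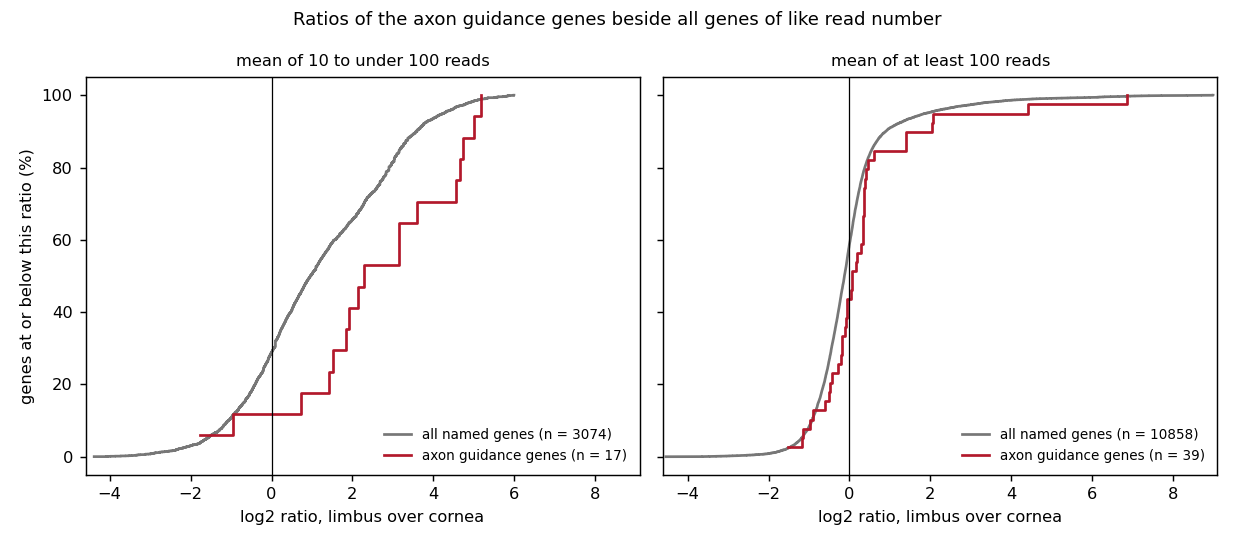
Cumulative share of genes (%) at or below each log2 value of limbus over cornea, for the axon guidance genes (red) and all named genes (grey), with means of 10 to under 100 reads (left) and of at least 100 reads (right). A library with 3 reads or fewer is set to 3 reads. The red curve lies right of the grey one over most of the left panel, with medians of 2.28 and 0.96, and runs close to it on the right, with medians of 0.06 and -0.12.

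**Figure D2:**
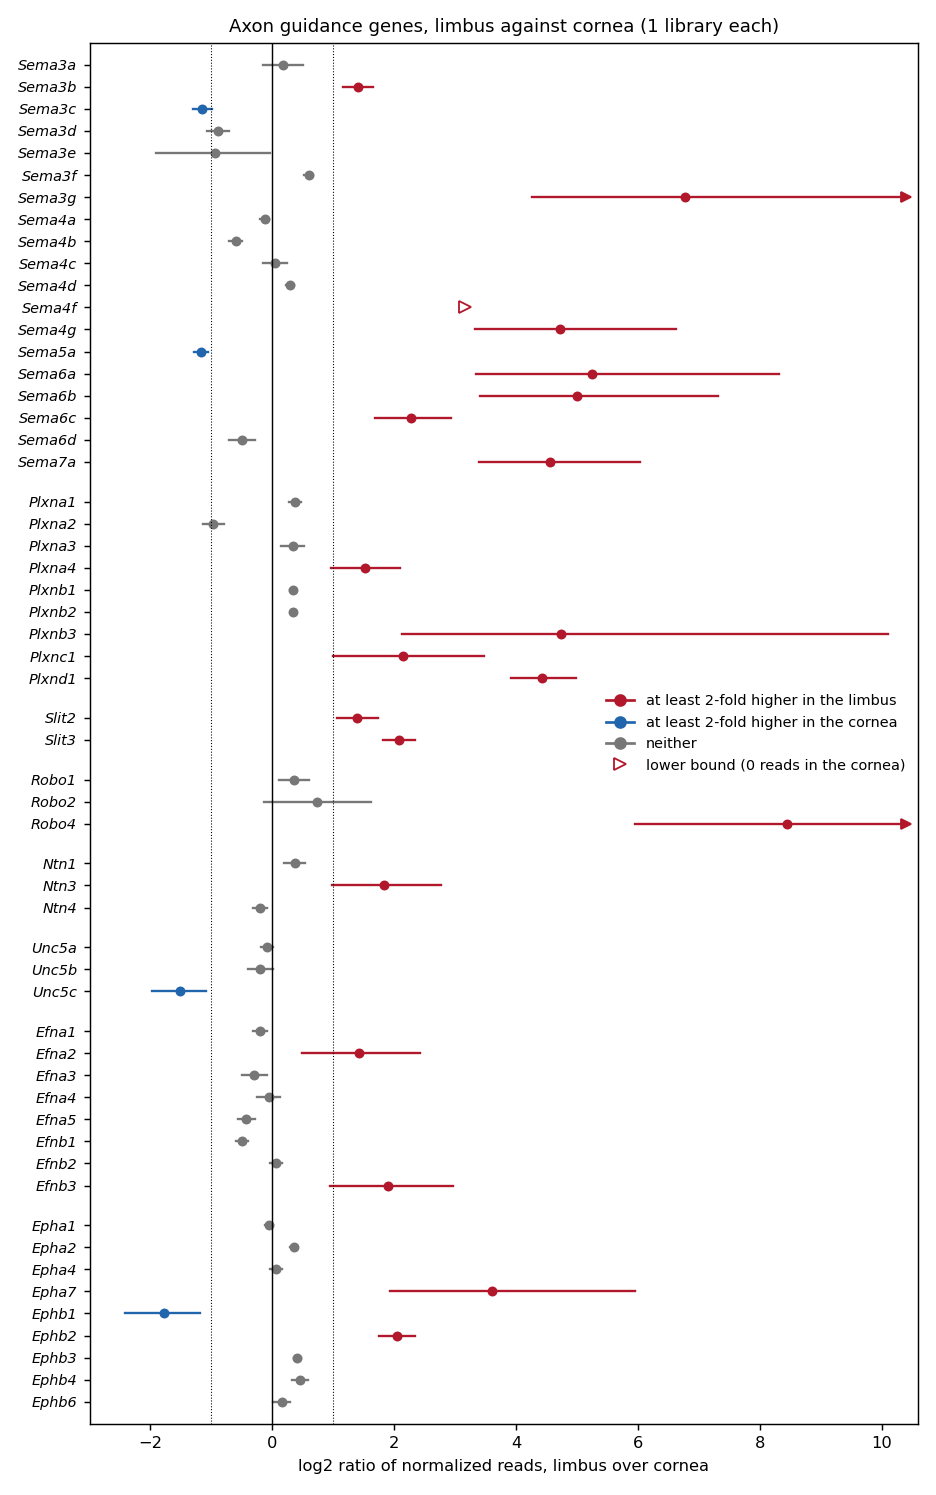
Log2 ratio of normalized reads (limbus over cornea) for the 56 members with a mean of at least 10, grouped by family. Points are ratios, lines 95% exact intervals of counting error (an arrowhead marks an interval that runs past the axis), dotted lines a 2-fold difference, and the open triangle a lower bound. The red points (20, limbus) reach far to the right with wide intervals, the blue ones (4, cornea) lie between -1.78 and -1.15, and the grey ones (32) sit around 0.

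The extremes of the set are shown here by the 250 bases before a transcription start annotated by RefSeq (GRCm38.p6). The gene spans given with the results are those of GENCODE, whose first starts can lie further upstream, so that all 250 bases of the Unc5c window, 75 of the Robo4 window and 13 of the Sema3g window fall inside the span. Robo4 and Sema3g had the largest ratios towards the limbus, with 1 corneal read each and 326 and 102 limbal reads. Ephb1 and Unc5c had the largest towards the cornea, with 110 and 178 reads there and 30 and 58 in the limbus. Capitals mark the GC box GGGCGG or its complement on the other strand, CCGCCC, which was found in the Sema3g window only. The motif TATAAA, searched on both strands, was in none of the 4 windows.
Robo4, chr9:37401722-37401971, plus strand: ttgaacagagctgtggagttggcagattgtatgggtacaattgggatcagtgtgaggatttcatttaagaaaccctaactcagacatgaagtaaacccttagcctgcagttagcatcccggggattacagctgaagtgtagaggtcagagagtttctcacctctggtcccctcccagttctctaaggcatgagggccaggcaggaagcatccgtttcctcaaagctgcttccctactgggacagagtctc
Sema3g, chr14:31217623-31217872, plus strand: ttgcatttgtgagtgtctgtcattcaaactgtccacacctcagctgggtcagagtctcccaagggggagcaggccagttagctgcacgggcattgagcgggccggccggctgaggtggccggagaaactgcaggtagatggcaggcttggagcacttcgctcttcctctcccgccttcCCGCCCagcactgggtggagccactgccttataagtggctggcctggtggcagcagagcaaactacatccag
Ephb1, chr9:102354694-102354943, minus strand: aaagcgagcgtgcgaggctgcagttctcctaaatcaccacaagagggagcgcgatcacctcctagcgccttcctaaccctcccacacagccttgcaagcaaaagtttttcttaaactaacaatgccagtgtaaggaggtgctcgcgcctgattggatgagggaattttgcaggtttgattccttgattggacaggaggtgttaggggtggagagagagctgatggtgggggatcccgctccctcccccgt
Unc5c, chr3:141465314-141465563, plus strand: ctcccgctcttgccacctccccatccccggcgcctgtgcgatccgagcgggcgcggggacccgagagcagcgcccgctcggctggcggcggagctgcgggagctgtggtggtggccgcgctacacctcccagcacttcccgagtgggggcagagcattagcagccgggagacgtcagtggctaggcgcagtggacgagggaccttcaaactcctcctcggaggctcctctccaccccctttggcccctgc
The Robo4 window held 2 CpG dinucleotides at a GC content of 49.6%, and that of Sema3g held 8 at 60.4%. For the corneal pair, the Ephb1 window held 10 at 54%, and that of Unc5c held 23 at 71.2%. Windows of this length were found for 57 of the 66 members. Each of these members had 1 window, that of the listed start nearest to the start of its gene span. The 32851 mouse promoters set beside them were taken without such a choice, so the sets were not chosen alike. The members' windows had a median GC content of 64.8%, against 52.4% over those promoters, and 16 CpG dinucleotides in the median, against 6. The GC box was in 71.9% of the members' windows and in 32.7% of all, and TATAAA in 3.51% and 12.4%. The GC box was in 12 of 16 windows of limbal members (75%), in 2 of 4 of corneal members (50%) and in 22 of 29 of those that were neither (75.9%). Median numbers of CpG dinucleotides in these groups were 18.5 (limbal), 20 (corneal) and 14 (neither), and median GC contents 67.4%, 71.6% and 64.4%. A match describes the letters of these windows, not a site of binding.

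Class 3 semaphorins, the secreted ligands of the family, went both ways. Sema3g (chromosome 14, 31217860 to 31230352), known from vascular endothelium, had 1 corneal and 102 limbal reads and a log2 value of 6.77 (95% CI 4.26 to 12.09). Sema3b (chromosome 9, 107597674 to 107609229) had 203 corneal and 502 limbal reads and a log2 value of 1.40 (95% CI 1.16 to 1.64). Both were higher in the limbus, but Sema3b was well expressed in the cornea too. Sema3c (chromosome 5, 17574281 to 17730268), a guide of neural crest and vessels in the developing heart, was 2.22-fold higher in the cornea, with 1070 corneal and 452 limbal reads and a log2 value of -1.15 (95% CI -1.31 to -0.99), which shrank to -0.94 with scaling to total reads. Sema3d lay just under the 2-fold limit on the same side, with 707 corneal and 357 limbal reads and a log2 value of -0.89 (95% CI -1.08 to -0.70). Sema3e, the ligand that binds plexin D1 without a neuropilin, rested on 33 and 16 reads, its log2 value was -0.95, and the 95% CI from -1.91 to -0.05 took in 0 once scaled to total reads. Sema3a, the classical repellent of sensory axons, had 155 corneal and 164 limbal reads, and its interval from -0.15 to 0.50 includes no difference, though with scaling to total reads it ran from 0.06 to 0.71. Sema3f was the most abundant secreted semaphorin in both tissues, with 2738 corneal and 3878 limbal reads and a log2 value of 0.60 (95% CI 0.53 to 0.67).

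Class 4 semaphorins, membrane-bound ligands that act mainly on plexin B receptors and in immune cells, included abundant ligands of the set. Per kilobase of exon, Sema4a had 912 corneal and 839 limbal normalized reads, and ranked 1 among the 35 ligands in the cornea and 3 in the limbus. Sema4d, a ligand of plexin B1, had 704 and 859. In counts, Sema4d had 3449 and 3937 reads (log2 value 0.29, 95% CI 0.22 to 0.35), and Sema4b had 2143 and 1320 (log2 value -0.60, 95% CI -0.70 to -0.50). Sema4a, with 3239 and 2787 reads, had a log2 value of -0.12 that turned positive with scaling to total reads, and Sema4c, with 440 and 425, lay within counting error but passed beyond it on that scale, at 0.25. The weakly expressed pair of this class was limbal. Sema4g (chromosome 19, 44989101 to 45003397) had 4 corneal and 99 limbal reads and a log2 value of 4.73 (95% CI 3.32 to 6.63). Sema4f (chromosome 6, 82911885 to 82939769) was at 0 reads in the cornea, which allows up to 3, and had 25 in the limbus, at least 8.91-fold higher.

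Class 5 to 7 semaphorins are anchored in the membrane, and related genes among them lay on opposite sides. Sema5a (chromosome 15, 32244810 to 32696341) was higher in the cornea, with 2085 corneal and 868 limbal reads and a log2 value of -1.17 (95% CI -1.28 to -1.05), which shrank to -0.96 with scaling to total reads. Sema5b had 1 and 11 reads, below the limit on the mean, with a log2 value of 3.56 (95% CI 0.77 to 8.98). Of the class 6 semaphorins, which bind plexin A receptors, 3 of 4 were limbal. Sema6a (chromosome 18, 47235598 to 47368870) had 2 corneal and 71 limbal reads and a log2 value of 5.25 (95% CI 3.34 to 8.32). Sema6b (chromosome 17, 56123085 to 56140343) had 3 corneal and 90 limbal reads and a log2 value of 5.003 (95% CI 3.41 to 7.31). Sema6c (chromosome 3, 95160457 to 95174024) had 28 corneal and 127 limbal reads and a log2 value of 2.28 (95% CI 1.68 to 2.92). The fourth, Sema6d, was the most abundant of the class in both tissues and leaned the other way, with 457 corneal and 304 limbal reads and a log2 value of -0.49 (95% CI -0.71 to -0.28). Sema7a (chromosome 9, 57940112 to 57962865), which is held by a lipid anchor and promotes axon growth through integrins, had 6 corneal and 132 limbal reads and a log2 value of 4.56 (95% CI 3.39 to 6.03).

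Plexins, the receptors of the semaphorins, were dominated by 1 gene. Plxnb2 ranked 1 among the 31 receptors in both tissues, with 2246 normalized reads per kilobase in the cornea and 2851 in the limbus. It made up 71.5% of the corneal and 70.7% of the limbal plexin level, and Plxnb1 followed with 18.5% and 18.2%. Plxnb2 had 15250 and 18114 reads (log2 value 0.34, 95% CI 0.31 to 0.38) and Plxnb1 5188 and 6145 (log2 value 0.34, 95% CI 0.29 to 0.39). The ratios of these abundant genes were small, and Plxna1 (1523 and 1845 reads) and Plxna3 (464 and 546 reads) had log2 values of 0.37 and 0.33. Plxna2 was the exception among them, with 906 corneal and 434 limbal reads and a log2 value of -0.97 (95% CI -1.13 to -0.80).

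The other 4 plexins were limbal. Plxnd1 (chromosome 6, 115954811 to 115995005), the plexin of vascular endothelium, had 32 corneal and 643 limbal reads, a 21.5-fold difference and a log2 value of 4.42 (95% CI 3.91 to 4.98). By level per kilobase it ranked 18 among the 31 receptors in the cornea and 11 in the limbus. Plxna4 (chromosome 6, 32144268 to 32588192), a partner of Sema3a and class 6 semaphorins in neurons, had 37 corneal and 99 limbal reads and a log2 value of 1.52 (95% CI 0.96 to 2.10). Plxnc1 (chromosome 10, 94790866 to 94944835), the plexin that binds Sema7a, had 8 corneal and 33 limbal reads and a log2 value of 2.14 (95% CI 0.997 to 3.47). Plxnb3 (chromosome X, 73757090 to 73772514), a receptor of Sema5a, had 1 corneal and 25 limbal reads and a log2 value of 4.74 (95% CI 2.13 to 10.10). The ligand and receptor of a pair could thus lie on opposite sides. Sema5a was higher in the cornea and Plxnb3 in the limbus, whereas Sema7a and Plxnc1 were both limbal. Plxnd1 was limbal while its ligand Sema3e had 33 corneal and 16 limbal reads. The neuropilins, which are no members, were both limbal, with 218 and 482 reads for Nrp1 (log2 value 1.24, 95% CI 1.01 to 1.48) and 100 and 337 for Nrp2 (log2 value 1.85, 95% CI 1.52 to 2.19).

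**Figure D3:**
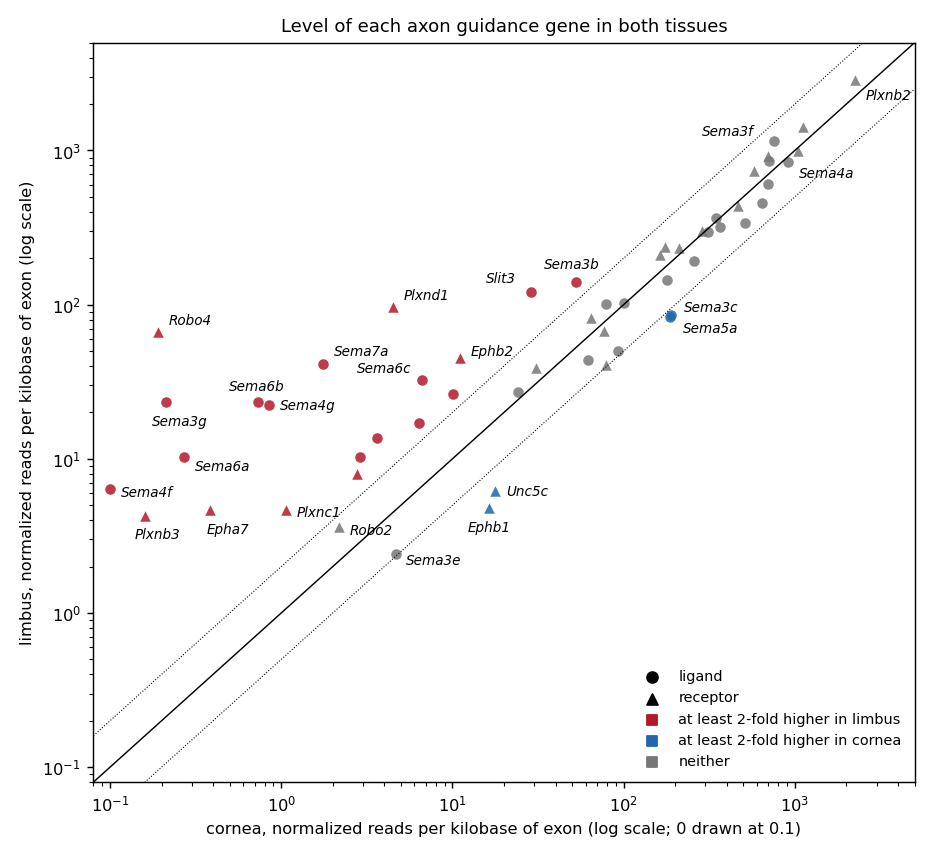
Level of each of the 56 members in cornea (x) and limbus (y), in normalized reads per kilobase of exon on log axes. Circles are ligands, triangles receptors, the solid line equal levels and the dotted lines a 2-fold difference. The most abundant genes, led by Plxnb2 at 2246 and 2851, lie along the solid line, and the genes far from it have low levels in the cornea.

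Slits and their Robo receptors were scarce in the cornea, and the summed level of each family was higher in the limbus. Slit3 (chromosome 11, 35121224 to 35708507) had 156 corneal and 613 limbal reads and a log2 value of 2.07 (95% CI 1.81 to 2.33). Slit2 (chromosome 5, 47983138 to 48307733), a repellent that also makes sensory axons branch, had 105 corneal and 257 limbal reads and a log2 value of 1.39 (95% CI 1.05 to 1.73). The summed level of the Slits, in normalized reads per kilobase, was 39.0 (cornea) and 148.6 (limbus), and Slit3 made up 74.0% and 81.6% of it. Robo4 (chromosome 9, 37401897 to 37415115), the Robo of vascular endothelium, had 1 corneal and 326 limbal reads and a log2 value of 8.44 (95% CI 5.96 to 13.75), the largest in the set. Robo1, a neuronal receptor of Slits, had 239 corneal and 286 limbal reads and a log2 value of 0.35 (95% CI 0.10 to 0.61). Robo2 had 20 and 31 reads and a 95% CI from -0.13 to 1.62, which includes no difference, though with scaling to total reads it ran from 0.08 to 1.82. The make-up of the family therefore differed between the tissues, as Robo1 held 92.8% of the Robo level in the cornea but 35.8% of the limbal one, and Robo4 held 0.58% and 60.5%. Robo3, which lies next to Robo4 at a distance of 553 bases, had 0 and 2 reads.

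Markers of blood vessel endothelium were higher in the limbus, as were Robo4, Plxnd1 and Sema3g, which are known from that cell type. Ephb4, known from venous endothelium, had a log2 value of 0.45, under 2-fold, and Efnb2, known from arterial endothelium, one of 0.06, within counting error. These genes are examples and not a full list of the members found in endothelium. Of the 7 markers, 6 were at least 2-fold higher in the limbus, with a summed level of 221 corneal and 2938 limbal normalized reads, and none was at 0 in either library. Pecam1 had 6 and 831 reads, Cdh5 3 and 421, and Tek 2 and 178, while Kdr had 170 and 278. The 5 markers of skeletal muscle and the 5 of photoreceptors and lens were also all limbal. So were the 5 of lymphatic endothelium, at a sum of 43.5 and 847 normalized reads. Of the 5 neuron markers, 3 passed the limit on the mean and were limbal, the summed level was 24.2 and 173, and Prph and Elavl4 were at 0 in the cornea. The part of these cell types in the ratios of the guidance genes was not tested.

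Netrins and Unc5 receptors differed little in their abundant members. Ntn4, a laminin-like netrin of basement membranes, made up 81.3% of the netrin level in the cornea and 74.0% in the limbus. It had 1376 corneal and 1124 limbal reads and a log2 value of -0.20 (95% CI -0.31 to -0.08), which came to 0.0096 and fell within counting error with scaling to total reads. Ntn1, the classical netrin, had 494 corneal and 595 limbal reads and a log2 value of 0.36 (95% CI 0.19 to 0.54). Ntn3 (chromosome 17, 24203848 to 24209531) was limbal, with 15 corneal and 50 limbal reads and a log2 value of 1.83 (95% CI 0.98 to 2.77), but it shares exonic bases with Tbc1d24 on the same strand and with BC028777 on the other. Unc5 receptors mediate repulsion by netrins. Unc5c (chromosome 3, 141465216 to 141834924) exceeded its limbal level by 2.87-fold in the cornea, with 178 corneal and 58 limbal reads and a log2 value of -1.52 (95% CI -1.98 to -1.09). Unc5a was the most abundant Unc5 receptor in both tissues, with 1923 and 1696 reads and an interval from -0.18 to 0.01, and Unc5b had 466 and 381 reads and an interval from -0.39 to 0.004. Both lay within counting error and changed sign with scaling to total reads, Unc5a then passing beyond it towards the limbus at a log2 value of 0.12. Dcc, the attractive netrin receptor, had 4 corneal and 1 limbal reads, and neogenin (Neo1) had 1132 and 903, for a log2 value of -0.23 (95% CI -0.36 to -0.10).

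**Figure D4:**
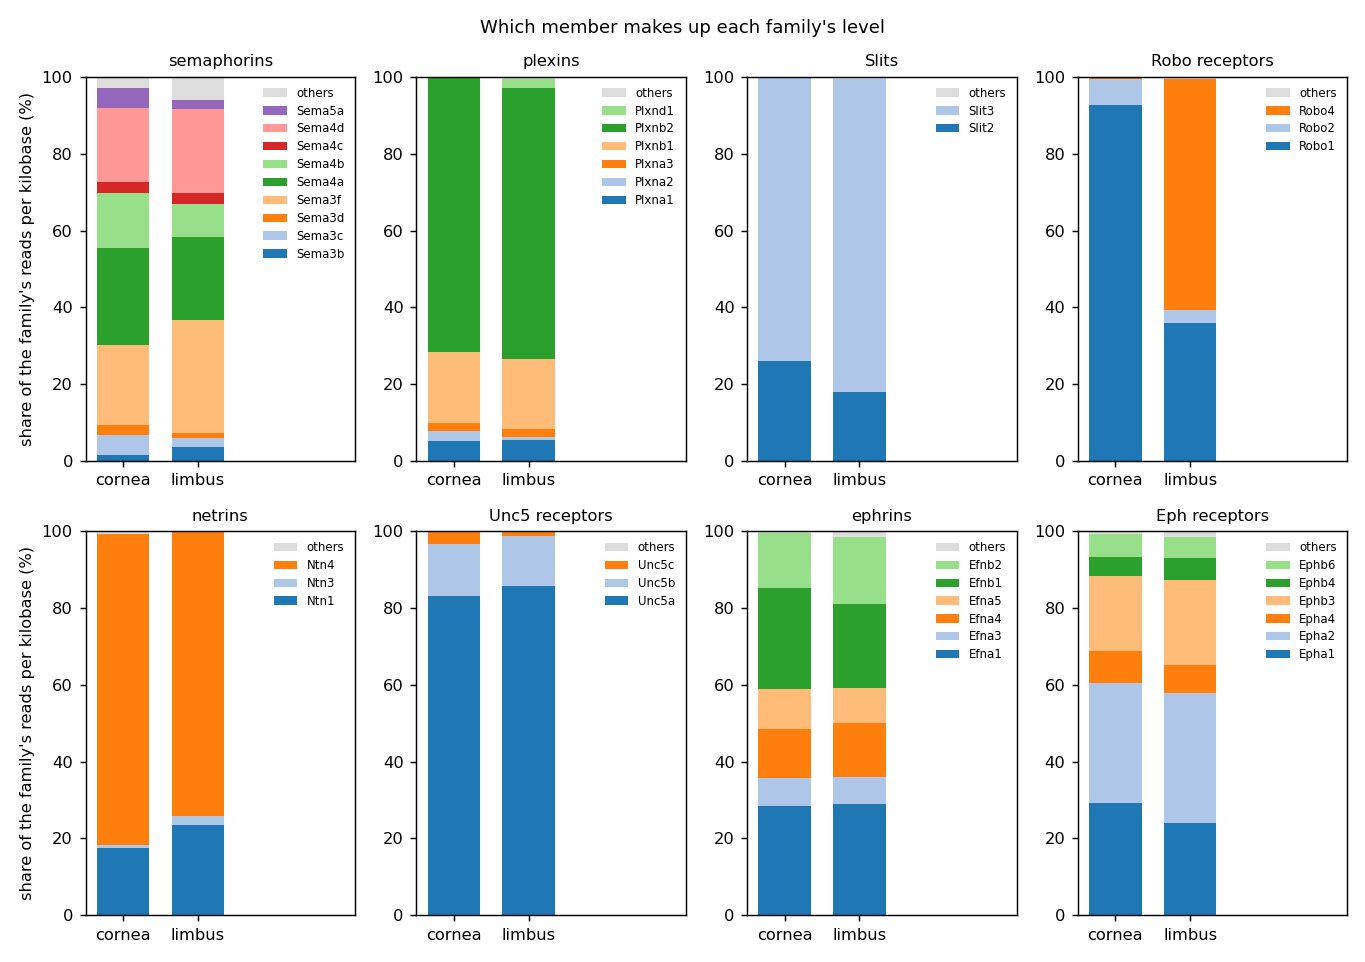
Share (%) of each family's summed normalized reads per kilobase of exon held by its members, in cornea (left bar) and limbus (right bar). Genes under 2% in both tissues are pooled as others. The Robo bars differ between the tissues, with Robo4 at 0.58% in the cornea and 60.5% in the limbus, whereas Plxnb2 held 71.5% and 70.7% of the plexins.

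Among the ephrins, the abundant genes were even or leaned to the cornea and the scarce ones to the limbus. Efna1 had the highest level per kilobase of the 8 ephrins in both tissues, 692 and 603. Efnb1, with 2173 and 1438 reads, had a log2 value of -0.50 (95% CI -0.60 to -0.40), and Efna5, a ligand in retinal map formation, had 1072 and 746, for a log2 value of -0.43 (95% CI -0.56 to -0.29). Efna1 (1310 and 1068 reads) and Efna3 (435 and 332 reads) had log2 values of -0.20 and -0.29, and for both the difference fell within counting error with scaling to total reads, Efna1 changing sign. Efna4, with 514 and 461 reads, lay within counting error, and its sign turned with scaling to total reads. Efnb2, the ephrin of arterial endothelium, had 1727 and 1682 reads and an interval from -0.04 to 0.16, which became 0.17 to 0.36 with scaling to total reads. Efna2 (chromosome 10, 80179482 to 80190010) was limbal, with 14 corneal and 35 limbal reads and a log2 value of 1.42 (95% CI 0.49 to 2.43). Efnb3 (chromosome 11, 69554092 to 69560205) had 12 corneal and 42 limbal reads and a log2 value of 1.90 (95% CI 0.95 to 2.96). Efna1, Efna3 and Efna4 are neighbors on chromosome 3 between 89271733 and 89338028, and all 3 had log2 values between -0.29 and -0.06.

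Eph receptors, the receptor tyrosine kinases that bind ephrins, were led by Epha2, Epha1 and Ephb3. Their levels per kilobase were 1112, 1037 and 698 in the cornea and 1416, 995 and 925 in the limbus. Epha2 had 4500 and 5359 reads (log2 value 0.35, 95% CI 0.29 to 0.41) and Ephb3 4123 and 5116 (log2 value 0.41, 95% CI 0.35 to 0.47). Epha1 (3626 and 3257 reads) and Epha4 (1879 and 1833 reads) lay within counting error. With scaling to total reads both passed beyond it towards the limbus, with log2 values of 0.15 and 0.27, the first changing sign. Ephb4, the partner of Efnb2 on venous endothelium, had 786 corneal and 1007 limbal reads and a log2 value of 0.45 (95% CI 0.32 to 0.59), and Ephb6, which lacks kinase activity, had 816 and 848, for a log2 value of 0.15 (95% CI 0.01 to 0.29).

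The EphB receptors of lower abundance stood on opposite sides. Ephb1 (chromosome 9, 101922128 to 102354693) exceeded its limbal level by 3.43-fold in the cornea, with 110 corneal and 30 limbal reads and a log2 value of -1.78 (95% CI -2.41 to -1.19). Ephb2 (chromosome 4, 136647539 to 136835988) was 4.11-fold higher in the limbus, with 124 corneal and 477 limbal reads and a log2 value of 2.04 (95% CI 1.75 to 2.34). Per kilobase of exon, Ephb1 had 16.4 normalized reads and Ephb2 10.997 in the cornea, and 4.78 and 45.2 in the limbus, so the order of the pair turned between the tissues. Epha7 (chromosome 4, 28813131 to 28967499) had 3 corneal and 34 limbal reads and a log2 value of 3.60 (95% CI 1.93 to 5.95). Epha3, Epha5, Epha8 and Epha10 had at most 1 corneal and 5 limbal reads, and Epha6 was listed at 0.

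Exonic bases of 11 of the 56 members are shared with another annotated gene, for most on the opposite strand. The libraries were stranded, but whether the counting used strand is not given in the sources used here. Of the 4 corneal members, Ephb1 and Unc5c are among these 11, each with a gene on the other strand. Besides the genes already given, Slit1 had 0 corneal and 5 limbal reads, Ntn5 6 and 2, and Unc5d 0 and 1, too few for a difference to be detectable.

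A further 60 genes of the pathway, none of them a member, were taken from a list of co-receptors, other guidance proteins and signaling proteins inside the cell. Of these, 53 had a mean of at least 10, and 18 were at least 2-fold higher in the limbus (33.96%, against 17.7% of all genes) and 4 in the cornea (7.55%, against 8.75%). Their median log2 value was 0.30. The limbal genes with the largest ratios were Cxcl12, a chemokine that guides axons and leukocytes (11 and 748 reads, log2 value 6.18, 95% CI 5.34 to 7.19), Ablim3, an actin-binding protein (6 and 140 reads), Fyn, a kinase downstream of semaphorins and netrins (13 and 214 reads), Flrt1 (2 and 29 reads) and Flrt2 (64 and 616 reads), which bind Unc5 receptors, Fes (32 and 278 reads), Cxcr4, the receptor of Cxcl12 (3 and 20 reads), and Dpysl4, a collapsin response mediator (6 and 36 reads). The 4 corneal genes were Chl1, a cell adhesion protein that binds neuropilin 1 (4981 and 1111 reads, log2 value -2.07, 95% CI -2.16 to -1.97), Ngef, the exchange factor ephexin of EphA receptors (1230 and 318 reads, log2 value -1.86), the kinase Pak1 (2766 and 1199 reads, log2 value -1.11) and Rasa1, a Ras GTPase-activating protein bound by EphB receptors (1554 and 683 reads, log2 value -1.09).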

How the data were processed

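Total RNA from pooled limbal rims and corneal buttons was sequenced from stranded libraries. The authors trimmed adaptors and aligned the reads to mouse build GRCm38 (mm10) with CLC Genomics Workbench, stating a normalization by trimmed mean of M-values. In the 1 table the authors deposited, each gene has a normalized signal averaged over both libraries (reads over a size factor), a shrunken log2 fold change of cornea over limbus with its standard error, and raw and adjusted p-values. A remark in the table gives the direction. The deposited log2 fold changes and standard errors served only to tell apart read pairs with the same mean, and the p-values were not used. Rows without a gene name (17484 of 40904, 42.7%) were left out.

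Each mean is a whole number of steps, since 109 reads of the cornea equal 102 of the limbus (size factors 1.03 and 0.967), with a largest deviation of 0.0101 of a step. Of 17442 genes with a mean above 0, 6143 allow 1 pair of read numbers. For the others, the pair was kept whose standard error, implied by the penalized negative binomial equations, came closest to the deposited one, and 120 genes with close rivals or a miss above 0.001 were placed by the dispersion of genes of like mean and ratio. For 7 of those 120, none a member, the runner-up was under 10 times worse. Of the members, Plxnb2 was placed in this way, and its runner-up was 433 times worse. On simulated data for this comparison, the reads of all 2933 genes were found, and all 200 changed genes kept their direction. Whether the deposited table follows the equations used was not tested in this way. Reads are thus derived values and not a count table.

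Ratios use the size factors. A gene was called at 2-fold or more with an exact 95% Clopper-Pearson interval that excludes equal levels, where the mean reached 10, with 3 reads in place of fewer. A level against 0 reads is a lower bound against 3 reads. Levels per kilobase use exon lengths of GENCODE M21 (GRCm38), which also gave positions and shared exonic bases, and all 66 members matched. Every member could be named, and of the other pathway genes the neuropilins, Dcc, neogenin and the 8 largest ratios per direction. The members and lists were chosen with earlier results of these data known. Alternatives were scaling to total reads, a trimmed mean of M-values, means of at least 50 or more than 3 reads in 1 library, a pseudocount of 1, no fold limit, and leaving out genes that share exonic bases. Python 3.11.15 with numpy 2.4.6, scipy 1.17.1, pandas 2.3.3 and matplotlib 3.10.9 was used.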

Additional observations from a re-analysis of the deposited data

How the results depend on the processing

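Depth limits the scarce members, since 18 of the 56 had fewer than 50 cornea reads, and 1 library per tissue leaves the spread between animals unmeasured. Scaled to total reads, 20 members remained limbal in number and 2 were corneal in place of 4, as Sema3c and Sema5a fell under 2-fold, 7 members gained a difference beyond counting error towards the limbus, 5 lost or turned theirs (Efna1, Efna3, Ntn4, Sema3e and Sema4a), and the median log2 ratio was 0.55. Among the other pathway genes, 2 were then corneal and the median was 0.50. With a mean of at least 50, 11 members were limbal (24.4% of 45) and the median was 0.18. The median of the other pathway genes was then 0.17, because genes with few reads were no longer counted. Without genes that share exonic bases, 2 members were corneal. With no fold limit, 32 members were limbal and 15 corneal, and of the other pathway genes 29 and 15. The trimmed mean of M-values raised every log2 ratio by 0.02 and changed no call of a member. The remaining alternatives kept each count within 1.5 times its value. Shares of all genes called were counted only for the main setting, its ranges of the mean and no fold limit. The counts under the other alternatives therefore do not show whether an excess over all genes remained. No paired analysis was possible because the table gives no value for the numbered samples, and for the same reason no replicate could be left out.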
